A study of Arabidopsis thaliana with 15 samples.

Results

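Leaf senescence in Arabidopsis is driven by NAC transcription factors and ends in the dismantling of chlorophyll, and 10 genes of these processes were followed here in rosettes with altered Mediator. Of the 33601 loci in the count table, the 10 were chosen by locus: the NAC regulators ORE1 (AT5G39610), NAP (AT1G69490) and ORS1 (AT3G29035), the senescence marker genes SAG12 (AT5G45890), SAG13 (AT2G29350) and SEN1 (AT4G35770), and the chlorophyll breakdown genes NYC1 (AT4G13250), SGR1 (AT4G22920), PPH (AT5G13800) and PAO (AT3G44880). Polyadenylated RNA was sequenced from 5 genotypes in the Columbia-0 accession with 3 libraries each. The genotypes were ref4-1 and ref4-3, which carry different missense alleles of the MED5B (REF4) gene, cdk8-1, a T-DNA insertion line of CDK8, the combination ref4-3 cdk8-1, and wild type (WT). MED5B belongs to the tail of Mediator, which connects transcription factors with RNA polymerase II. CDK8 provides the kinase activity of a separable module of the same complex. Every library was a pool of 5 whole rosettes harvested on day 20, 6.5 h into a day of 16 h light, so leaves of all ages were mixed. In such bulk samples fewer cells of a type and less RNA per cell cannot be told apart.

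ORE1 (also called NAC092) raises the rate of age-dependent leaf senescence and acts downstream of the ethylene signalling protein EIN2, and the microRNA miR164 cleaves its mRNA in young leaves. ORS1 is the closest relative of ORE1 and also promotes senescence, while NAP acts through abscisic acid, with the abscisic acid synthesis gene AAO3 and the phosphatase gene SAG113 among its targets. SAG12 codes for a cysteine protease that is used as a marker of late, developmental senescence, SAG13 for a short-chain dehydrogenase that also responds to salicylic acid and stress, and SEN1 (DIN1) for a small protein induced by darkness and sugar shortage. In chlorophyll breakdown NYC1 reduces chlorophyll b, SGR1 (also called NYE1) removes the magnesium, PPH cuts off the phytol tail and PAO opens the ring.

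The sequence that links ORE1 to miR164 is shown here. ORE1 and ORS1 moved differently, and whether their sites bear on that was not tested. The mature miRNA and the best ungapped match over all annotated transcripts of each gene were read from TAIR10.1. NAC1, a target of miR164 known in Arabidopsis, is given for comparison. Capitals mark the seed (bases 2 to 8) in the miRNA and, in the sites, the bases that pair with miR164a. All 3 sites lie in coding sequence.
miR164a, chr2:19520770-19520790, plus strand: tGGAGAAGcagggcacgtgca
ORE1 site, chr5:15858797-15858817, minus strand: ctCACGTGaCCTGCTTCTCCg
ORS1 site, chr3:11034693-11034713, plus strand: ctCACGTtaCCTaCTTCTCCg
NAC1 site, chr1:20947142-20947162, minus strand: aGCACGTaCCCTGCTTCTCCA
The ORE1 site paired with miR164a at 17 of 21 bases, the ORS1 site at 15 and the NAC1 site at 19. The best windows of the other 8 genes paired at 11 to 13 bases. The precursors were hardly covered by these libraries, with 14 counts of MIR164B summed over the 3 ref4-3 libraries, and 5 over the 3 WT libraries, and these were below the filter for testing.

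The 250 bases before the annotated start are shown for the regulators that rose most, ORE1 and NAP, and for SAG13 and SEN1, the 2 marker genes that fell in cdk8-1 against WT. Capitals mark matches, on either strand, to the G-box CACGTG, the ACGTG core bound by abscisic acid factors, the W-box core TTGAC bound by WRKY factors, the NAC site CATGTG and the TATCCA element. The ACGTG core lies within the G-box.
ORE1, chr5:15859912-15860161, minus strand: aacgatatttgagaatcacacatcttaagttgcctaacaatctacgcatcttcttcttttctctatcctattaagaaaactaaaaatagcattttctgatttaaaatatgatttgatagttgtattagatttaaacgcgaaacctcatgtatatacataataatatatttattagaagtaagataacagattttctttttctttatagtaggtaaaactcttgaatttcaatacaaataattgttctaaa
NAP, chr1:26121830-26122079, plus strand: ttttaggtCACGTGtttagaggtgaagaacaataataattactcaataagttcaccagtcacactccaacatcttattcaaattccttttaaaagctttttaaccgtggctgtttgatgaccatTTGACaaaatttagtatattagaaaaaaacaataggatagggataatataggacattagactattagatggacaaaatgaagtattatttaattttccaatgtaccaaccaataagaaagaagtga
SAG13, chr2:12600664-12600913, plus strand: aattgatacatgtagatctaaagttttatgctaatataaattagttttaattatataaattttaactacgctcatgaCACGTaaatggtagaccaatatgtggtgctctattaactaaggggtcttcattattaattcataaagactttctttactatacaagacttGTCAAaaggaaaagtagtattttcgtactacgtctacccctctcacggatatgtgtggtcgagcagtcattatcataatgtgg
SEN1, chr4:16944628-16944877, plus strand: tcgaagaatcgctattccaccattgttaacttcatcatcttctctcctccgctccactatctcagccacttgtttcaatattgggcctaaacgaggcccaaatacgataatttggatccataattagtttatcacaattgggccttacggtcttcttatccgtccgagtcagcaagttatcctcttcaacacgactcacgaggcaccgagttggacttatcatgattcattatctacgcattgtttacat
The NAP window held a G-box 242 to 237 bases and a W-box core 126 to 122 bases before the start. The SAG13 window held an ACGTG core at 173 to 169 and a W-box core at 83 to 79 bases. Neither the ORE1 nor the SEN1 window held any of the 5 motifs, which says only that these letters are not in this stretch. Among 27443 promoters of the same length 6.49% held the G-box, 22.9% the ACGTG core, 44.9% the W-box core, 11.1% the NAC site and 13.6% the TATCCA element. Of the 10 genes 1, 2, 3, 3 and 1 did, in the same order of motifs.

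The libraries held 9573567 to 16803904 gene counts, so that a single count was worth 0.0595 to 0.104 counts per 1000000 (CPM). CDK8 itself averaged 4.50 ± 0.170 CPM in cdk8-1, 5.40 ± 1.10 in ref4-3 cdk8-1 and 19.4 ± 1.28 in WT (SD, n = 3 each), in the direction of the labels. The level of MED5B cannot test a missense allele. Its log2 fold change was 0.19 ± 0.09 in ref4-1 and 0.27 ± 0.09 in ref4-3 against WT. Of CDK8 and MED5B, 0 were called in ref4-1 and 1 was called higher in ref4-3 at an adjusted p under 0.05. Both were called lower in ref4-3 cdk8-1 against ref4-3. Library 3 of ref4-1 was the shallowest and stood apart from its replicates. Counts of library 3 differed from those of libraries 1 and 2 by 14.7 and 11.5 in chi-square per degree of freedom, while all other pairs within a genotype gave 2.67 to 6.2.

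Levels below are normalised CPM of libraries 1, 2 and 3. Changes are log2 fold changes ± SE from edgeR's quasi-likelihood model over all 15 libraries, with 3 libraries in each group. A change was called at a Benjamini-Hochberg adjusted p under 0.05 over the 18935 genes tested. All 10 genes passed the filter on low counts, which asked for more than 1 CPM in 3 libraries. SAG12 passed it with 5 libraries, of which no cdk8-1 and no WT library, and NAP with 10, of which no cdk8-1 and 1 WT library. All 4 comparisons with WT share the same WT libraries.

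With either MED5B allele the NAC regulators ORE1 and NAP, the marker SAG13 and the breakdown genes NYC1 and SGR1 rose, and SEN1 fell. In ref4-1 against WT 5 of the 10 genes rose and 1 fell, where 20.9% of all genes tested were called (10.7% higher, 10.2% lower). In ref4-3 against WT 7 rose, with SAG12 and PAO in addition, and SEN1 fell, where 39.9% of all genes were called (20.3% higher, 19.6% lower). With 1 library left out there were 4 to 6 rises in ref4-1. Without ref4-1 library 3 there were 6, PAO being the addition. The rise of SGR1 in ref4-1 was lost without WT library 3 or ref4-1 library 1 or 2. With DESeq2 6 of the 10 genes rose in ref4-3, SAG12 being lost.

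In cdk8-1 alone 0 of the 10 genes rose and SAG13, PPH and SEN1 fell, where edgeR called 19.8% of all genes against WT (8.06% higher, 11.8% lower). At an unadjusted p under 0.05, and with DESeq2, the number of rises was also 0. ORE1, NAP, ORS1, SGR1, PAO and NYC1 rose and SAG13 and SEN1 fell in ref4-3 cdk8-1 against WT, where 42.6% of all genes were called (21.0% higher, 21.6% lower). The fall of SAG13 there was lost with DESeq2 and with scaling to library totals, which left 1 fall.

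**Figure D1:**
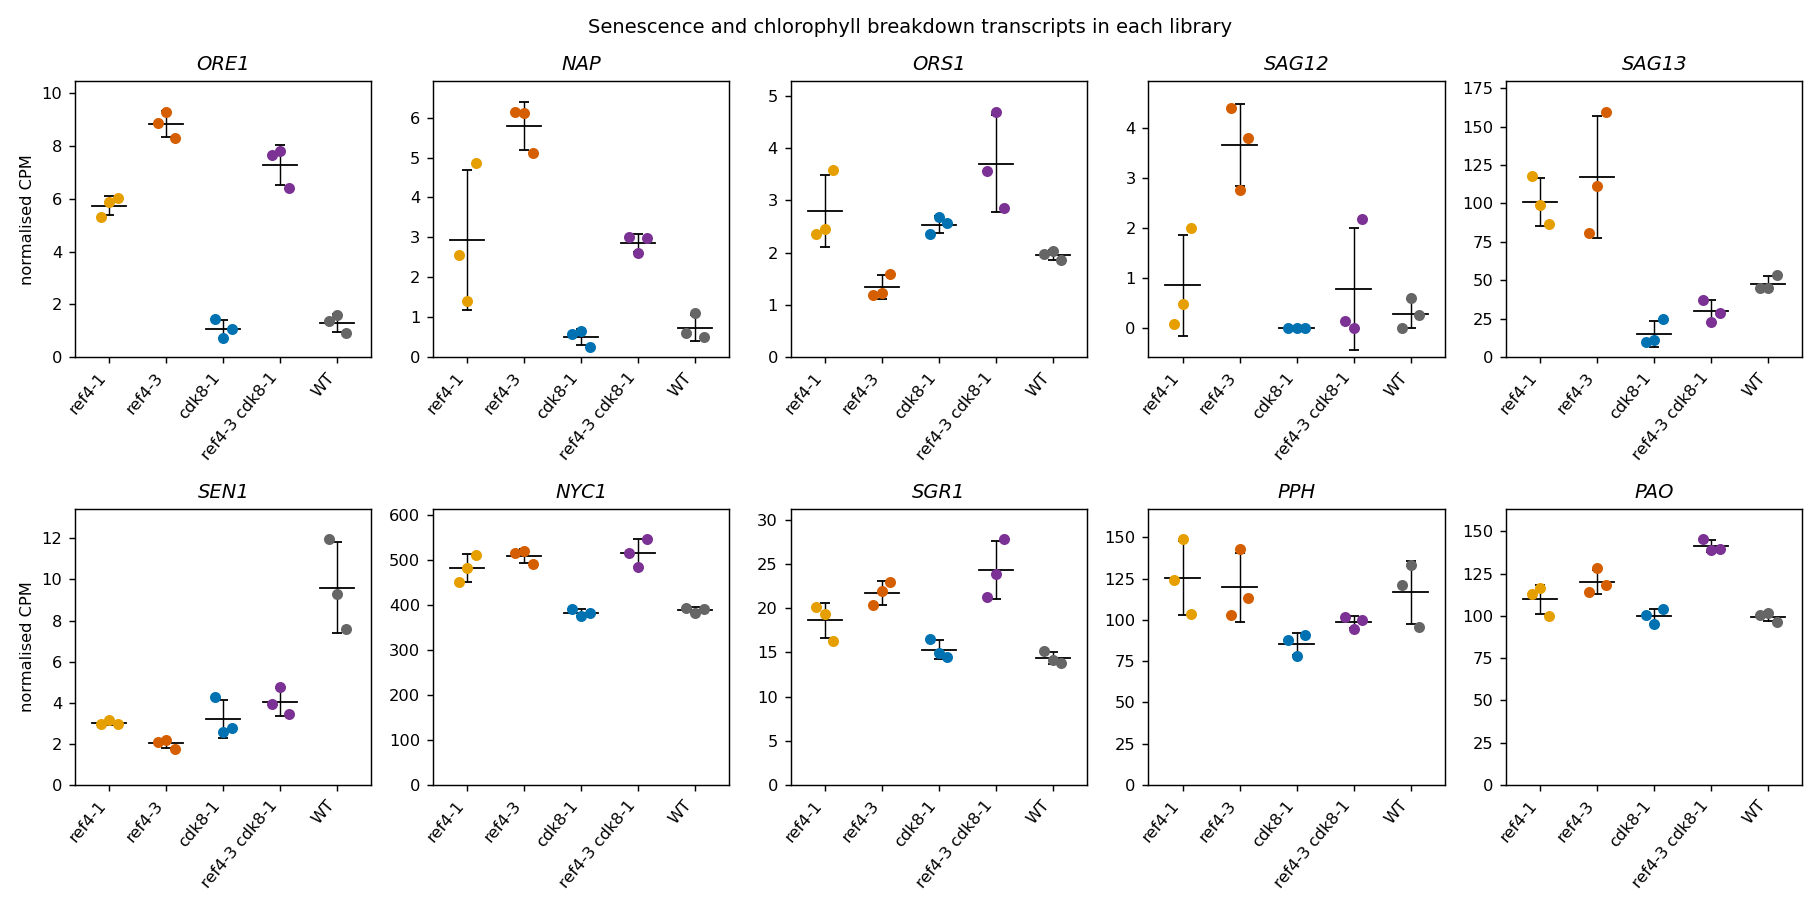
Normalised CPM (vertical axes, from 0 except for SAG12, whose axis reaches below 0 for the error bar) of the 10 genes in every library. Points are libraries, horizontal bars are means and error bars SD (n = 3). ORE1 and NAP sit higher in every library of the 3 genotypes with a ref4 allele than in any cdk8-1 or WT library, and SEN1 sits lower in all mutant libraries than in WT.

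ORE1 was low in cdk8-1 and WT and several times higher wherever a ref4 allele was present. Its level was 5.32, 5.88 and 6.01 CPM in ref4-1, 8.87, 9.30 and 8.31 in ref4-3, 1.43, 0.738 and 1.06 in cdk8-1, 7.64, 7.80 and 6.42 in ref4-3 cdk8-1 and 1.38, 1.61 and 0.925 in WT. The order was ref4-3, ref4-3 cdk8-1, ref4-1, then WT and cdk8-1, and WT and cdk8-1 were the only neighbours whose libraries overlapped. Against WT the log2 fold change was 2.13 ± 0.20 in ref4-1 (adjusted p = 6.68e-07) and 2.75 ± 0.19 in ref4-3 (adjusted p = 3.94e-09), and it was 2.48 ± 0.20 in ref4-3 cdk8-1 (adjusted p = 1.32e-08). In cdk8-1 it was -0.26 ± 0.28 (adjusted p = 0.627). ORE1 in ref4-3 cdk8-1 lay below every ref4-3 library, but the change of -0.27 ± 0.14 did not pass (adjusted p = 0.155).

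NAP rose with ORE1 in the ref4 alleles and fell when CDK8 was lost in ref4-3 plants. Its level was 2.56, 1.40 and 4.85 CPM in ref4-1, 6.15, 6.12 and 5.11 in ref4-3, 0.590, 0.646 and 0.266 in cdk8-1, 3.00, 2.60 and 2.99 in ref4-3 cdk8-1 and 0.602, 1.10 and 0.505 in WT. The ref4-1 libraries spread most, and their range covered that of ref4-3 cdk8-1 but not that of ref4-3 or WT. The log2 fold change against WT was 1.87 ± 0.42 in ref4-1 (adjusted p = 0.00333) and 2.96 ± 0.37 in ref4-3 (adjusted p = 5.69e-06), and it was 1.94 ± 0.41 in ref4-3 cdk8-1 (adjusted p = 0.000869). ref4-3 cdk8-1 lay below ref4-3 with a log2 fold change of -1.02 ± 0.28 (adjusted p = 0.0094), with no overlap. In cdk8-1 against WT the change was -0.55 ± 0.60 and did not pass (adjusted p = 0.584), at counts too low for a firm statement.

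ORS1 did not share the pattern of its relative ORE1. It had 2.35, 2.44 and 3.59 CPM in ref4-1, 1.19, 1.22 and 1.60 in ref4-3, 2.36, 2.67 and 2.57 in cdk8-1, 3.57, 4.70 and 2.85 in ref4-3 cdk8-1 and 1.98, 2.03 and 1.85 in WT. Every ref4-3 library was below, and every library of the other mutants above, those of WT. Against WT the rise in ref4-3 cdk8-1 passed the test (0.93 ± 0.22, adjusted p = 0.00272). The value in ref4-3 was -0.54 ± 0.27 (adjusted p = 0.117), in ref4-1 0.47 ± 0.24 (adjusted p = 0.176) and in cdk8-1 0.37 ± 0.25 (adjusted p = 0.328). ORS1 rose in ref4-3 cdk8-1 against ref4-3 by 1.47 ± 0.23 (adjusted p = 8.56e-05).

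Of the genes that act before ORE1, the ethylene signalling gene EIN2 rose slightly in ref4-3 (0.22 ± 0.07, adjusted p = 0.0222), likewise in ref4-3 cdk8-1 (0.24 ± 0.07, adjusted p = 0.015), while the transcription factor gene EIN3 had 0.06 and 0.10 in the same genotypes. NAC1, which shares the miR164 site, averaged 10.7 ± 0.743 CPM in ref4-1, 11.9 ± 1.17 in ref4-3, 20.3 ± 1.03 in cdk8-1, 15 ± 2.00 in ref4-3 cdk8-1 and 10.8 ± 1.15 in WT (SD, n = 3 each). It was highest in cdk8-1 and rose there by 0.92 ± 0.11 (adjusted p = 1.07e-05), where ORE1 had -0.26. Only 4 of the 9 genes of this list, which also holds the MIR164 precursors, CUC1 and CUC2, had counts enough for testing.

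The 5 known target genes of these NAC factors went separate ways. SAG29, a sugar transporter gene, averaged 0.411 ± 0.0608 CPM in ref4-1, 4.93 ± 3.00 in ref4-3, 0.686 ± 0.494 in cdk8-1, 14.7 ± 1.89 in ref4-3 cdk8-1 and 0.141 ± 0.0964 in WT. Its log2 fold change against WT was 5.01 ± 0.64 in ref4-3 and 6.60 ± 0.53 in ref4-3 cdk8-1 (adjusted p = 6.22e-06 and 1.56e-08), from 5 WT counts in all. SAG113, the NAP target, averaged 8.29 ± 0.894 CPM in ref4-1, 20.3 ± 7.09 in ref4-3, 1.53 ± 0.152 in cdk8-1, 22.1 ± 3.77 in ref4-3 cdk8-1 and 2.63 ± 1.02 in WT. It rose by 1.67 ± 0.29, 2.93 ± 0.26 and 3.07 ± 0.26 in ref4-1, ref4-3 and ref4-3 cdk8-1 against WT (adjusted p at most 0.00042). AAO3 rose in ref4-3 (0.41 ± 0.10) and ref4-3 cdk8-1 (0.71 ± 0.10). The nuclease genes BFN1 and RNS3 had -0.04 and -0.10 in ref4-3 and passed in no comparison with WT. In ref4-3 cdk8-1 against ref4-3, where NAP fell, SAG113 had 0.14 ± 0.19 (adjusted p = 0.626) and SAG29 rose by 1.60 ± 0.28 (adjusted p = 0.000225).

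The other 12 senescence-linked NAC genes were mostly lower without CDK8. In ref4-1 and in ref4-3 5 of 12 rose (median log2 fold change 0.51 and 0.57, against 0.02 over all genes tested in both), where 10.7 and 20.3% of all genes rose. The count was 3 in ref4-1 without WT library 1, and 10 in ref4-3 with library totals. In cdk8-1 against WT 9 of 12 fell (median -1.06, against 0.00 over all genes), where 11.8% of all genes fell, and 5 fell without WT library 2 or cdk8-1 library 2. Against ref4-3 12 of 12 fell in ref4-3 cdk8-1 (median -1.09, against 0.01), where 17.0% of all genes fell. In ref4-3 cdk8-1 against WT 6 fell and 2 rose, where 21.6 and 21.0% of all genes did. ATAF1, a stress-induced activator of ORE1, averaged 43.2 ± 5.62 CPM in ref4-1, 60.5 ± 4.72 in ref4-3, 5.99 ± 0.720 in cdk8-1, 28.7 ± 2.48 in ref4-3 cdk8-1 and 13.0 ± 0.937 in WT. JUB1, a NAC factor that delays senescence, averaged 3.44 ± 0.525 CPM in ref4-1, 3.21 ± 0.679 in ref4-3, 0.853 ± 0.182 in cdk8-1, 0.601 ± 0.160 in ref4-3 cdk8-1 and 2.40 ± 0.626 in WT. ATAF1 (-1.07 ± 0.09) and JUB1 (-2.41 ± 0.29) fell in ref4-3 cdk8-1 against ref4-3 (adjusted p = 6.38e-08 and 3.82e-06), whereas the value of ORE1 was -0.27.

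SAG12, the marker of late senescence, was close to absent except in ref4-3. Its counts were 1, 8 and 19 in ref4-1, 63, 34 and 50 in ref4-3, 0, 0 and 0 in cdk8-1, 2, 0 and 30 in ref4-3 cdk8-1, and 0, 7 and 3 in WT. Normalised, these were 0.0691, 0.466 and 2.00 CPM in ref4-1, 4.40, 2.77 and 3.81 in ref4-3, 0.143, 0 and 2.19 in ref4-3 cdk8-1 and 0, 0.592 and 0.252 in WT. The ref4-3 libraries were above all others, and single libraries carried most counts in ref4-1 and ref4-3 cdk8-1. In ref4-3 the pooled count was 13.1-fold that of WT after normalisation, and the log2 fold change was 3.66 ± 0.94 (adjusted p = 0.00558, and 0.0883 with DESeq2). The value was 1.29 ± 1.27 in ref4-1 (adjusted p = 0.532) and -0.00046 without ref4-1 library 3. ref4-3 cdk8-1 against WT gave 1.37 ± 1.24 (adjusted p = 0.401) and -1.92 without ref4-3 cdk8-1 library 3.

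SAG12 had no count in cdk8-1. Set at a limit of 3 counts over the 3 libraries, its level there was 3.2-fold below the pooled WT level. This ratio takes the WT total of 10 counts as exact, so it is not a minimum. The cdk8-1 and WT libraries overlapped, and the test did not pass (adjusted p = 0.342). SAG12 fell in ref4-3 cdk8-1 against ref4-3 (-2.29 ± 0.75, adjusted p = 0.026). That fall was -5.58 without ref4-3 cdk8-1 library 3, and it was lost with DESeq2 (adjusted p = 0.369) and without ref4-3 library 1 or 3 or ref4-3 cdk8-1 library 1 or 2 (adjusted p = 0.058 to 0.104).

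SAG13 was high in both ref4 alleles and low without CDK8. Its level was 118, 98.9 and 86.9 CPM in ref4-1, 80.6, 112 and 159.7 in ref4-3, 9.78, 11.2 and 25.0 in cdk8-1, 37.5, 23.1 and 28.7 in ref4-3 cdk8-1 and 45.1, 45.0 and 53.4 in WT. All ref4-1 and ref4-3 libraries were above, and all cdk8-1 and ref4-3 cdk8-1 libraries below, those of WT. The log2 fold change against WT was 1.08 ± 0.25 in ref4-1 (adjusted p = 0.0038), 1.29 ± 0.25 in ref4-3 (adjusted p = 0.000393) and -1.65 ± 0.29 in cdk8-1 (adjusted p = 0.000453), while ref4-3 cdk8-1 had -0.69 ± 0.26 (adjusted p = 0.0418). SAG13 fell in ref4-3 cdk8-1 against ref4-3 (-1.98 ± 0.25, adjusted p = 7.31e-06). The change in ref4-3 cdk8-1 against WT did not pass with DESeq2 (adjusted p = 0.115), library totals (0.0815) or without any WT library or ref4-3 cdk8-1 library 2 or 3 (0.066 to 0.173).

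SAG13 lies in a cluster of related genes, and 209 bases of its transcript were 94.3% identical to AT2G29150, so reads from that stretch may have been left out or shared, and its level is uncertain to that extent. The other 9 genes had no stretch of 100 bases or more elsewhere in the genome above 86.2% identity.

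From the genes tied to salicylic acid, S3H, which codes for a salicylic acid hydroxylase, averaged 53.1 ± 14.4 CPM in ref4-1, 59.1 ± 19.2 in ref4-3, 2.41 ± 0.873 in cdk8-1, 2.61 ± 0.747 in ref4-3 cdk8-1 and 9.17 ± 3.56 in WT. The defence marker PR1 changed by 1.99 ± 0.31 in ref4-1, -4.56 ± 0.43 in cdk8-1, both against WT, as well as by -3.72 ± 0.34 in ref4-3 cdk8-1 against ref4-3. Whether their movement bears on that of SAG13 was not tested. WRKY53, an early senescence regulator, averaged 15.2 ± 2.40 CPM in ref4-1, 16.0 ± 4.40 in ref4-3, 3.12 ± 0.964 in cdk8-1, 1.99 ± 0.626 in ref4-3 cdk8-1 and 12.4 ± 2.54 in WT, and fell in ref4-3 cdk8-1 against ref4-3 (-3.01 ± 0.26, adjusted p = 5.19e-08).

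SEN1 was lower in every mutant than in WT. Its level was 2.97, 3.14 and 2.95 CPM in ref4-1, 2.1, 2.20 and 1.75 in ref4-3, 4.30, 2.58 and 2.75 in cdk8-1, 3.93, 4.76 and 3.43 in ref4-3 cdk8-1 and 11.9, 9.30 and 7.57 in WT. No mutant library reached the lowest WT library, and the ref4-3 libraries were below all others. The log2 fold change against WT was -1.66 ± 0.20 in ref4-1 (adjusted p = 9.21e-06), -2.25 ± 0.21 in ref4-3 (adjusted p = 1.88e-07) and -1.57 ± 0.20 in cdk8-1 (adjusted p = 2.04e-05), while ref4-3 cdk8-1 had -1.24 ± 0.19 (adjusted p = 3.62e-05). With cdk8-1 SEN1 was thus lower in plants with intact MED5B, and in ref4-3 plants it was higher, by 1.01 ± 0.23 (adjusted p = 0.0025).

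Other dark-inducible genes did not all move with SEN1. DIN11, an oxygenase gene, averaged 38.8 ± 18.0 CPM in ref4-1, 13.6 ± 2.91 in ref4-3, 19.4 ± 5.37 in cdk8-1, 6.18 ± 1.56 in ref4-3 cdk8-1 and 148 ± 6.09 in WT. It fell further in ref4-3 cdk8-1 against ref4-3, where SEN1 rose (-1.11 ± 0.33, adjusted p = 0.0131). This fall of DIN11 was smaller than that in cdk8-1 against WT (-2.93 ± 0.25). The difference of 1.81 ± 0.42 passed edgeR's interaction test (adjusted p = 0.0164), but not without ref4-3 cdk8-1 library 2. DIN10, a raffinose synthase gene, fell in ref4-1 (-0.89 ± 0.09), ref4-3 (-1.38 ± 0.09) and ref4-3 cdk8-1 (-0.99 ± 0.09) and rose by 0.52 ± 0.09 in cdk8-1 against WT. DIN2, a beta-glucosidase gene, rose in ref4-3 by 3.53 ± 0.55 (adjusted p = 5.88e-05). Of the 6 genes 2 fell in ref4-1, 3 fell and 1 rose in ref4-3, 1 fell and 1 rose in cdk8-1, and 2 fell and 1 rose in ref4-3 cdk8-1, where 20.9, 39.9, 19.8 and 42.6% of all genes were called. With DESeq2, library totals, no filter, only the groups compared, the replicate block, or without ref4-1 library 1 or ref4-3 library 1 or 3, 1 also rose in ref4-1, and 2 fell in cdk8-1 with only the groups compared.

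**Figure D2:**
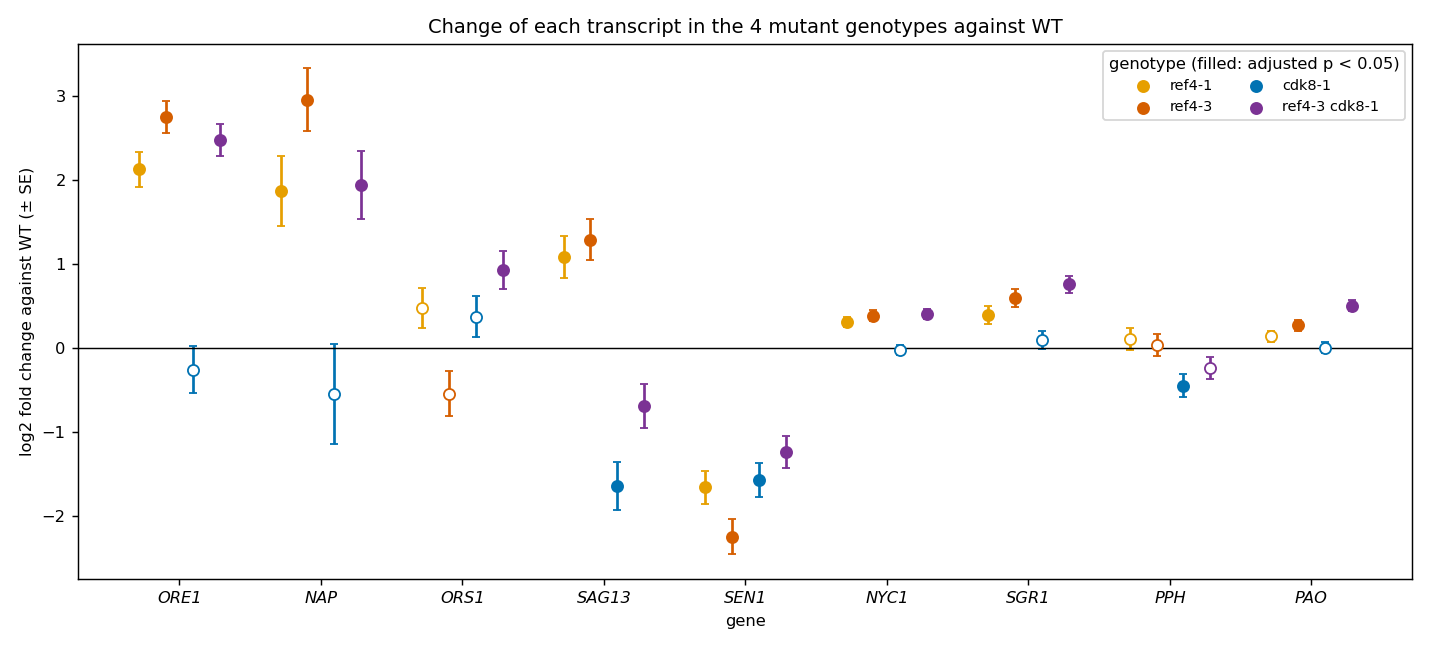
Log2 fold change against WT (vertical axis) with SE for 9 of the 10 genes in each mutant. SAG12 is left out because of its counts of 0. Filled points have an adjusted p under 0.05. ORE1 and NAP stand at 1.87 to 2.96 in the genotypes with a ref4 allele, SEN1 stands below 0 in all 4 mutants, and the chlorophyll breakdown genes lie within 1 unit of 0.

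The chlorophyll breakdown genes were expressed at much higher levels than the NAC genes and changed less. Per kilobase of exon, NYC1 was the most abundant of the 10 transcripts in every genotype, with 233 ± 14.8 RPKM (CPM per kilobase of exon) in ref4-1, 246 ± 7.18 in ref4-3, 185 ± 3.77 in cdk8-1, 249 ± 14.8 in ref4-3 cdk8-1 and 188 ± 2.59 in WT (SD, n = 3 each). In WT PPH had 50.9 ± 8.35, PAO 49.4 ± 1.30, SAG13 35.0 ± 3.52 and SGR1 8.13 ± 0.396 RPKM, while SEN1 had 7.41 ± 1.70, ORS1 1.36 ± 0.0641, ORE1 0.992 ± 0.264, NAP 0.587 ± 0.255 and SAG12 0.215 ± 0.227. In ref4-3 ORE1 had 6.73 ± 0.379 and NAP 4.62 ± 0.473 RPKM, both still below SGR1 with 12.3 ± 0.747.

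NYC1, which starts the breakdown of chlorophyll b, was 1.24- to 1.32-fold higher than in WT in every genotype with a ref4 allele. It had 451, 483 and 512 CPM in ref4-1, 516, 519 and 492 in ref4-3, 391, 376 and 382 in cdk8-1, 516, 484 and 546 in ref4-3 cdk8-1 and 393, 383 and 391 in WT. The libraries with a ref4 allele were all above those of cdk8-1 and WT, which overlapped. Against WT NYC1 changed by 0.31 ± 0.06 in ref4-1 (adjusted p = 0.0013) and 0.39 ± 0.06 in ref4-3 (adjusted p = 6.49e-05), and it was 0.41 ± 0.06 in ref4-3 cdk8-1 (adjusted p = 3.34e-05). In cdk8-1 it was -0.02 ± 0.06 (0.00 with upper quartile scaling), and against ref4-3 it was 0.02 ± 0.06 in ref4-3 cdk8-1 (-0.03 with library totals), neither of which passed.

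SGR1, the magnesium dechelatase gene, rose in the same genotypes. It had 20.2, 19.4 and 16.4 CPM in ref4-1, 20.3, 21.9 and 22.9 in ref4-3, 16.5, 14.9 and 14.5 in cdk8-1, 21.3, 23.9 and 27.8 in ref4-3 cdk8-1 and 15.1, 14.1 and 13.8 in WT. The ref4-3 cdk8-1 and ref4-3 libraries overlapped and lay above all others, and ref4-1 overlapped with cdk8-1 but not with WT. Against WT SGR1 changed by 0.39 ± 0.11 in ref4-1 (adjusted p = 0.0136) and 0.60 ± 0.11 in ref4-3 (adjusted p = 0.000193), and it was 0.76 ± 0.10 in ref4-3 cdk8-1 (adjusted p = 1.05e-05). In cdk8-1 it was 0.10 ± 0.11 (adjusted p = 0.606). The rise in ref4-1 did not pass without WT library 3 or ref4-1 library 1 or 2 (adjusted p = 0.0523 to 0.061).

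PPH, the pheophytinase gene, was the breakdown gene with no called rise. It had 124, 149 and 104 CPM in ref4-1, 103, 143 and 113 in ref4-3, 87.8, 78.0 and 90.9 in cdk8-1, 102, 94.5 and 100.0 in ref4-3 cdk8-1 and 121, 133 and 95.7 in WT. The cdk8-1 libraries lay below all others, and the remaining 4 genotypes overlapped with their neighbours. The fall in cdk8-1 against WT was -0.45 ± 0.13 (adjusted p = 0.0246), and it did not pass without WT library 1 or 2 or cdk8-1 library 1 or 2 (adjusted p = 0.0585 to 0.128). The other values against WT were 0.11 ± 0.13 in ref4-1 and 0.04 ± 0.13 in ref4-3, with -0.24 ± 0.13 in ref4-3 cdk8-1, and none of them passed.

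PAO, the ring-opening oxygenase gene, was highest in ref4-3 cdk8-1. It had 113, 116 and 100.0 CPM in ref4-1, 114, 128 and 118 in ref4-3, 101, 95.1 and 104 in cdk8-1, 145, 139 and 139.8 in ref4-3 cdk8-1 and 101, 102 and 96.6 in WT. The ref4-3 cdk8-1 libraries were above all others, and the ref4-3 libraries were above those of cdk8-1 and WT. Against WT it rose in ref4-3 (0.27 ± 0.06, adjusted p = 0.00276). The rise in ref4-3 cdk8-1 was 0.50 ± 0.06 (adjusted p = 5.09e-06), and the value of 0.14 ± 0.06 in ref4-1 did not pass (adjusted p = 0.132). PAO rose in ref4-3 cdk8-1 against ref4-3 by 0.23 ± 0.06 (adjusted p = 0.00793). Scaled to library totals the rise in ref4-3 was 0.43, since that scaling moved the median of all genes in ref4-3 against WT to 0.185, against 0.0197 with the normalisation used. It moved the median to 0.109 in ref4-1 and to 0.138 in ref4-3 cdk8-1, and the share of rises among all calls to 75.5, 77.7 and 69.1% in ref4-1, ref4-3 and ref4-3 cdk8-1, against 51.4, 50.8 and 49.2%.

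**Figure D3:**
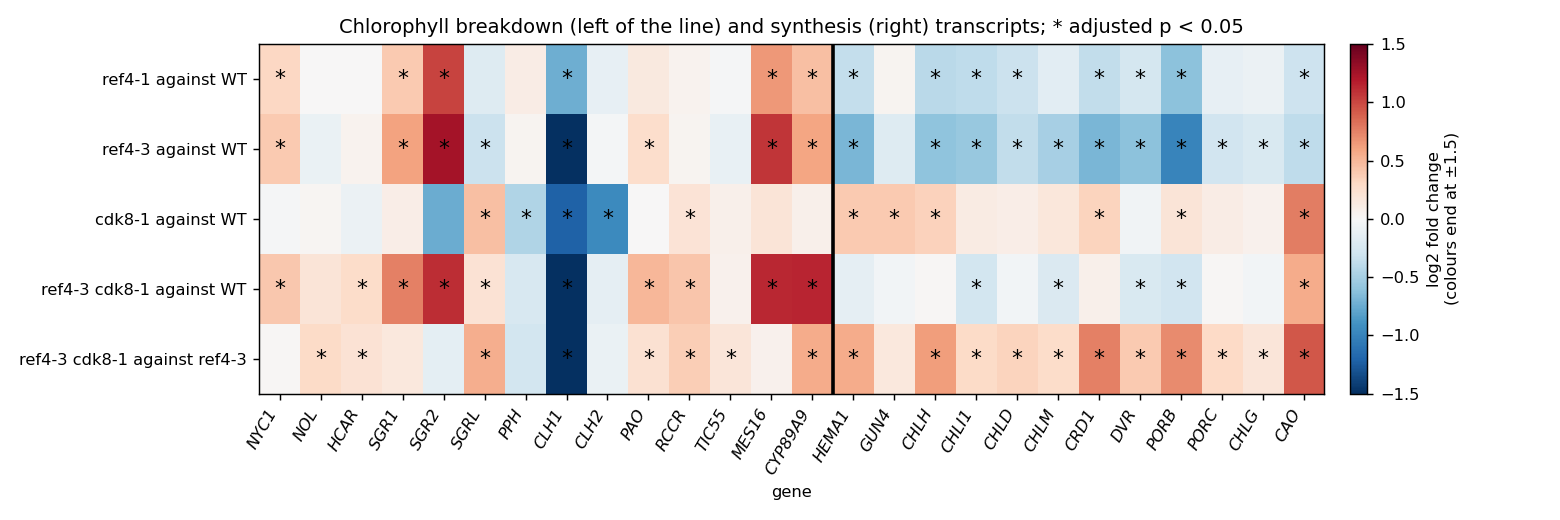
Log2 fold changes (colour, ending at 1.5 either way) of 14 chlorophyll breakdown genes, left of the line, and 12 synthesis genes, right of it, in 5 comparisons (rows). Stars mark an adjusted p under 0.05. In ref4-3 against WT 11 of the 12 synthesis genes fell, and in ref4-3 cdk8-1 against ref4-3 11 of 12 rose, while CLH1 fell in all 5 rows.

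Among the 10 other genes of chlorophyll breakdown 3 rose and 1 fell in ref4-1, 3 rose and 2 fell in ref4-3, 2 rose and 2 fell in cdk8-1, and 6 rose and 1 fell in ref4-3 cdk8-1, all against WT. The median log2 fold change was 0.00, 0.01, 0.05 and 0.24, against 0.02, 0.02, 0.00 and 0.02 over all genes, of which 20.9, 39.9, 19.8 and 42.6% were called, so that the share called in ref4-3 lay near that of all genes. The fall in ref4-1 was lost with DESeq2 and without WT library 1 or 2 or ref4-1 library 2, ref4-3 had 5 rises and 1 fall with library totals, and cdk8-1 had 1 rise without WT library 1 or cdk8-1 library 2 or 3. SGR2, the sister gene of SGR1, averaged 7.15 ± 1.37 CPM in ref4-1, 8.54 ± 2.07 in ref4-3, 2.12 ± 0.700 in cdk8-1, 7.73 ± 0.876 in ref4-3 cdk8-1 and 3.56 ± 1.23 in WT, and rose by 1.02 ± 0.24 in ref4-1 (adjusted p = 0.00552). MES16 and CYP89A9, which act on the colourless products at the end of the pathway, rose in ref4-3 by 1.07 ± 0.16 and 0.59 ± 0.11 and in ref4-3 cdk8-1 by 1.13 ± 0.16 and 1.14 ± 0.10. CLH1, a chlorophyllase gene that responds to jasmonate, averaged 601 ± 170.1 CPM in ref4-1, 244 ± 84.3 in ref4-3, 432 ± 89.1 in cdk8-1, 86.6 ± 19.8 in ref4-3 cdk8-1 and 1003 ± 152 in WT, and its fall in ref4-3 cdk8-1 was -3.53 ± 0.25 (adjusted p = 3.07e-09).

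Genes of chlorophyll synthesis fell in the ref4 alleles, where NYC1 and SGR1 rose. Of its 12 genes 8 fell in ref4-1 and 11 in ref4-3, while 6 rose in cdk8-1 and 4 fell and 1 rose in ref4-3 cdk8-1, all against WT. Among all genes 10.2% fell in ref4-1 and 19.6% in ref4-3, 8.06% rose in cdk8-1, and 21.6% fell and 21.0% rose in ref4-3 cdk8-1, where library totals gave 2 falls and 3 rises of synthesis genes. The medians were -0.32, -0.53, 0.18 and -0.04 in ref4-1, ref4-3, cdk8-1 and ref4-3 cdk8-1. PORB, a protochlorophyllide reductase gene, averaged 833 ± 69.1 CPM in ref4-1, 642 ± 22.6 in ref4-3, 1449 ± 11.9 in cdk8-1, 1046 ± 26.4 in ref4-3 cdk8-1 and 1272 ± 37.9 in WT. CAO, which makes chlorophyll b, the substrate of NYC1, averaged 67.7 ± 1.91 CPM in ref4-1, 64.7 ± 5.81 in ref4-3, 143 ± 0.996 in cdk8-1, 123 ± 7.67 in ref4-3 cdk8-1 and 84.2 ± 3.75 in WT. Of the 12 genes 11 rose in ref4-3 cdk8-1 against ref4-3 (median 0.36), where 15.9% of all genes rose, with CAO at 0.93 ± 0.07 and PORB at 0.70 ± 0.06, where NYC1 had 0.02 and PPH -0.28.

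The 10 regulators of chlorophyll breakdown gave a mixed picture. In ref4-3 against WT 4 rose and 3 fell, where 20.3 and 19.6% of all genes did. The abscisic acid response factor genes ABF2 and ABF3 rose by 0.76 ± 0.08 and 1.33 ± 0.13, and the light-regulated factor gene PIF4 fell (-0.78 ± 0.08). In ref4-3 cdk8-1 against WT 6 rose and 1 fell, where 21.0 and 21.6% of all genes did, with ABI5, which activates SGR1 and NYC1, at 1.74 ± 0.27 (adjusted p = 5.14e-05).

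Loss of CDK8 was compared in plants with and without ref4-3. In ref4-3 cdk8-1 against ref4-3 ORS1, PAO and SEN1 rose and NAP, SAG12 and SAG13 fell, 6 of the 10 genes where 33.0% of all genes were called (15.9% higher, 17.0% lower). In cdk8-1 against WT SAG13, PPH and SEN1 fell. The difference between these effects was tested directly and passed for 1 of the 10 genes, where 5.13% of all genes were called (3.07% with a positive and 2.05% with a negative difference). For SEN1 the effect of cdk8-1 in ref4-3 plants exceeded that in WT plants by 2.58 ± 0.31 on the log2 scale (adjusted p = 0.000121). The difference was 1.10 ± 0.34 for ORS1 (adjusted p = 0.0743), and it passed without ref4-1 library 3 or ref4-3 cdk8-1 library 3 (adjusted p = 0.049 and 0.0467). For SAG13, which fell with CDK8 in both kinds of plant, it was -0.33 ± 0.39 (adjusted p = 0.685), and for ORE1 -0.02 ± 0.36 (adjusted p = 0.992). No gene of the 10 had a negative difference that passed, and the number was also 0 at an unadjusted p under 0.05 and with DESeq2.

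**Figure D4:**
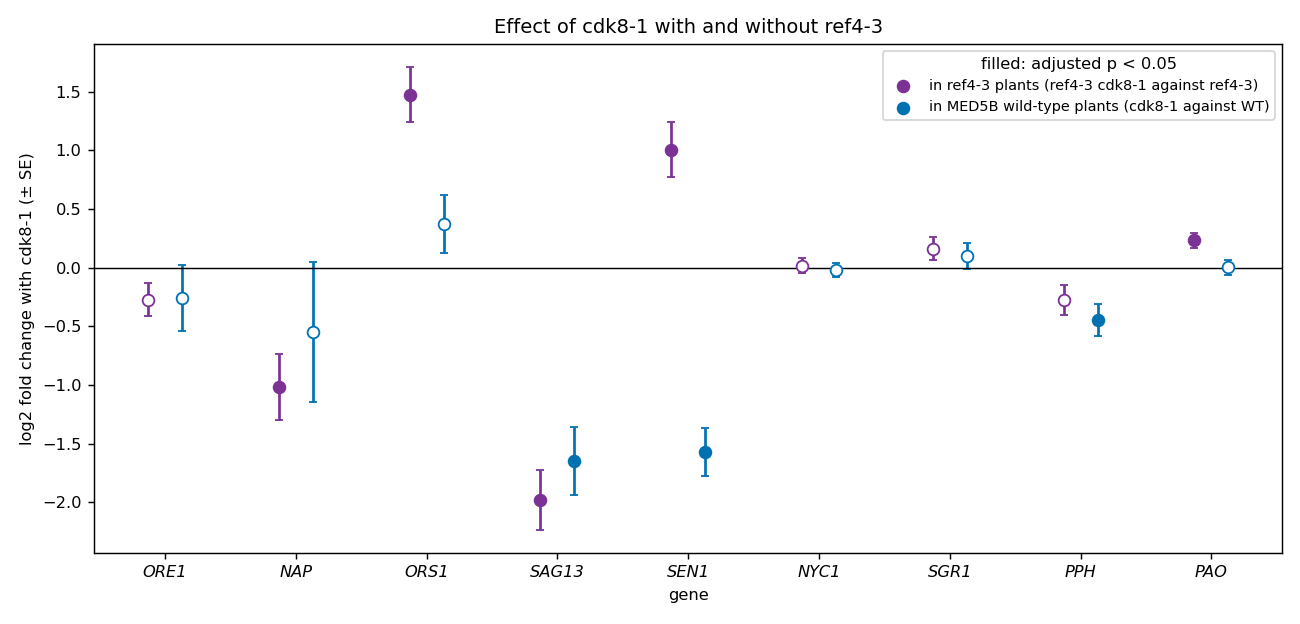
Log2 fold change with cdk8-1 (vertical axis, SE as bars) in ref4-3 plants and in plants with wild-type MED5B for 9 of the 10 genes. Filled points have an adjusted p under 0.05. SEN1 stands at 1.01 in ref4-3 plants and at -1.57 without ref4-3, SAG13 stands below 0 in both, and NYC1 stands near 0 in both.

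The effect of ref4-3 in plants that lack CDK8 was seen in ref4-3 cdk8-1 against cdk8-1, where 6 of the 10 genes rose and 32.8% of all genes were called (16.4% higher, 16.4% lower). ORE1 rose by 2.74 ± 0.20, NAP by 2.49 ± 0.45, SAG13 by 0.96 ± 0.30, SGR1 by 0.66 ± 0.10, PAO by 0.50 ± 0.06 and NYC1 by 0.43 ± 0.06 (adjusted p at most 0.0184). None fell, at an unadjusted p under 0.05 or with DESeq2 either. SAG12 had 32 counts in ref4-3 cdk8-1, of which 30 in library 3, and 0 in cdk8-1. Its pooled level was 8.34-fold that of a limit of 3 counts over the cdk8-1 group. This ratio takes the 32 counts as exact, so it is not a minimum. The change of SAG12 did not pass (adjusted p = 0.0764, and 0.51 without ref4-3 cdk8-1 library 3). It passed with DESeq2, no filter or only the groups compared (adjusted p = 0.0283, 0.0328 and 0.042), and without ref4-1 library 3 or ref4-3 cdk8-1 library 2 (adjusted p = 0.0453 and 0.0311). The libraries of SAG13 overlapped, its change was 1.5 without cdk8-1 library 3, and it did not pass without cdk8-1 library 1 or 2 or ref4-3 cdk8-1 library 1 (adjusted p = 0.0914 to 0.108).

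Between the alleles, ORE1 and NAP were higher and ORS1 was lower in ref4-3 than in ref4-1, where 10.9% of all genes were called (4.52% higher, 6.39% lower). The log2 fold change of ref4-3 against ref4-1 was 0.62 ± 0.15 for ORE1 (adjusted p = 0.0118), 1.09 ± 0.29 for NAP (adjusted p = 0.0229) and -1.02 ± 0.25 for ORS1 (adjusted p = 0.0145). SEN1 had -0.59 ± 0.25 (adjusted p = 0.136). SAG12 had 2.37 ± 0.77 (adjusted p = 0.0591, and 0.52 with DESeq2). Its value was 3.66 without ref4-1 library 3, where it passed (adjusted p = 0.0184), as it did with library totals, no filter, the replicate block, or without ref4-3 cdk8-1 library 2 or 3 (adjusted p = 0.0199 to 0.0439). NAP had 0.70 without ref4-1 library 2 and did not pass without ref4-1 library 1 or 2 or ref4-3 library 1 or 2 (adjusted p = 0.0578 to 0.0901), and ORS1 did not pass without ref4-1 library 3 or ref4-3 library 1 (adjusted p = 0.0544 and 0.0535). Neither passed when only these groups were fitted (adjusted p = 0.108 for NAP and 0.071 for ORS1). For the chlorophyll genes the values were 0.08 ± 0.06 for NYC1, 0.21 ± 0.10 for SGR1, -0.08 ± 0.13 for PPH and 0.13 ± 0.06 for PAO, none of which passed.

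Of all genes tested 10.7% rose and 10.2% fell in ref4-1, 20.3 and 19.6% in ref4-3, 8.06 and 11.8% in cdk8-1, and 21.0 and 21.6% in ref4-3 cdk8-1, all against WT. Of 12 other senescence-associated genes 8 rose in ref4-1 (5 with only the groups compared), and 7 rose and 2 fell in ref4-3. The falls in ref4-3 were 0 or 1 in 10 of the 15 fits without 1 library, with 0 without WT library 1 or ref4-3 library 1, and 1 without WT library 2, ref4-1 library 1 or 2, ref4-3 library 3, cdk8-1 library 2 or 3, or ref4-3 cdk8-1 library 1 or 3. They were also 1 with library totals, only the groups compared and the replicate block. In cdk8-1 7 fell and 1 rose, and in ref4-3 cdk8-1 5 fell and 4 rose. The rise in cdk8-1 was lost without cdk8-1 library 1 or 2, and there were 2 rises with upper quartile scaling or without ref4-1 library 1 or 3 or ref4-3 cdk8-1 library 1.

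Autophagy genes rose in part in the ref4 genotypes. The number was 4 of 11 in ref4-1 (7 with library totals) and 6 of 11 in ref4-3 cdk8-1, with 1 fall there that was lost with library totals and without WT library 2 or ref4-3 cdk8-1 library 2. In ref4-3 5 rose and 1 fell, with 3 rises by DESeq2, with only the groups compared or without ref4-3 library 3, and 8 with library totals. ATG8B was among the rises, with 0.51 ± 0.11, 0.56 ± 0.11 and 0.98 ± 0.11 in ref4-1, ref4-3 and ref4-3 cdk8-1. Of 12 genes of proteases and nitrogen remobilisation 2 rose and 3 fell in ref4-1, and 3 rose and 5 fell in ref4-3. Among all genes 20.9% were called in ref4-1 and 39.9% in ref4-3. The 3 falls in ref4-1 became 1 with library totals, with only the groups compared or without WT library 1 or 2, and 0 without ref4-1 library 2, and the rises in ref4-3 became 6 with library totals. PPDK, which feeds carbon into amino acid export from senescing leaves, rose by 1.02 ± 0.07 in ref4-3, and the cytosolic glutamine synthetase gene GLN1;2 fell (-0.44 ± 0.07). Of the 7 tested hormone genes 4 rose and 1 fell in ref4-1, and 4 rose and 3 fell in ref4-3. In cdk8-1 1 rose and 3 fell, and in ref4-3 cdk8-1 2 rose and 5 fell. Among all genes 20.9, 39.9, 19.8 and 42.6% were called, in the same order. The fall in ref4-1 was lost without any 1 WT library, without ref4-1 library 1 or 2, and with library totals, no filter, DESeq2 or only the groups compared. Fitting only the groups compared gave 5 falls in cdk8-1. The abscisic acid synthesis gene NCED3 rose by 1.26 ± 0.20, 1.64 ± 0.20 and 2.1 ± 0.19 in ref4-1, ref4-3 and ref4-3 cdk8-1 against WT. NCED3 also rose in cdk8-1 against WT, by 1.13 ± 0.21 (adjusted p = 0.000791). The abscisic acid response gene RD29B rose by 5.29 ± 0.44 in ref4-3 and 8.24 ± 0.32 in ref4-3 cdk8-1, from a WT mean of only 0.254 CPM.

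**Figure D5:**
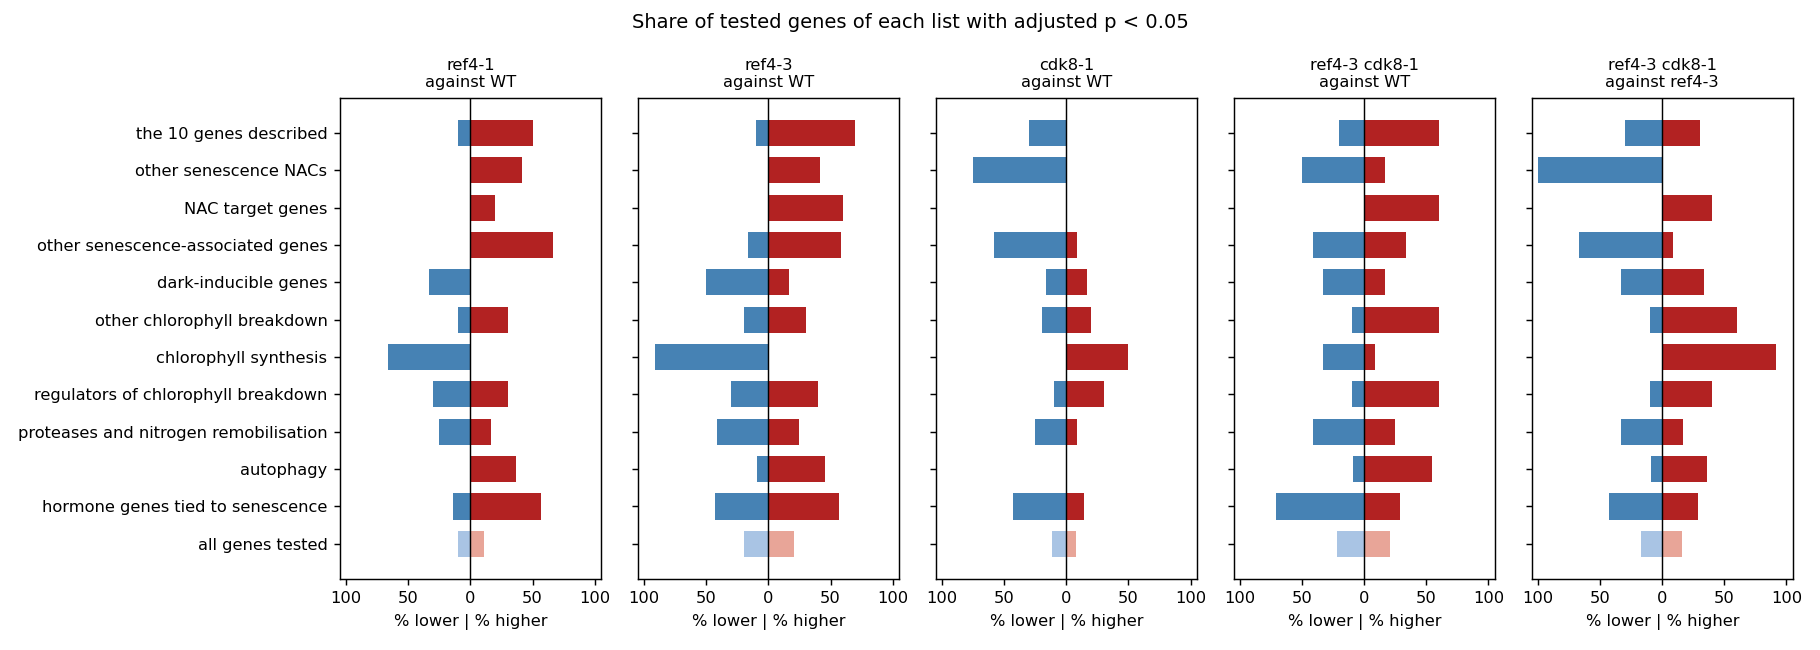
Share of the tested genes of each list that were higher (red, right) or lower (blue, left) at an adjusted p under 0.05, in percent (horizontal axis), for 5 comparisons. The bottom row gives all 18935 genes tested. The 12 other NAC genes stand at 9 lower in cdk8-1 and 12 lower in ref4-3 cdk8-1 against ref4-3, and chlorophyll synthesis stands at 11 lower in ref4-3.

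The genes most like each member were found among 15046 genes by the root mean square difference of centred log2 CPM over the 15 libraries. The nearest to ORE1 were AT3G04000 (0.349), ARFB1A (0.354) and the MYB repressor gene MYB7 (0.358), against a median of 1.26 over all candidates. The nearest to NAP were AT1G67360 (0.444), J11 (0.467) and MYB4 (0.487), with a median of 1.28. SAG13 was nearest to the oxygenase gene JRG21 (0.317), the receptor kinase gene CRK36 (0.371) and AT5G08240 (0.376). SEN1 was nearest to PDC2 (0.407), AT1G78850 (0.439) and PMT6 (0.451). NYC1 was nearest to SCPL49 (0.0634), the cysteine protease gene RD21A (0.0648) and AT3G22440 (0.0651), against a median of 0.256.

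Sums of tissue markers differed between some of the genotypes. The 8 leaf photosynthesis markers were all present and summed to 22836 to 28682 CPM in ref4-1, 20418 to 22746 in ref4-3, 40462 to 42395 in cdk8-1, 28429 to 28698 in ref4-3 cdk8-1 and 31847 to 33359 in WT. Their sum was thus lower in the ref4 genotypes, where ORE1 and NAP rose. In cdk8-1 the sum was higher, where the changes of ORE1 and NAP did not pass. RBCS1A made up much of it, with 13207 CPM in WT. Against WT 5 of the 8 markers fell in ref4-1 and 6 in ref4-3. In ref4-3 cdk8-1 4 fell and 1 rose, and in cdk8-1 5 rose. Among all genes 10.2% fell in ref4-1 and 19.6% in ref4-3. In ref4-3 cdk8-1 21.6% fell and 21.0% rose, and in cdk8-1 8.06% rose. The 4 phloem markers summed to 392 to 442 CPM in ref4-1, 431 to 490 in ref4-3, 255 to 268 in cdk8-1, 351 to 409 in ref4-3 cdk8-1 and 357 to 390 in WT. The 5 guard cell markers summed to 60.2 to 74.0 CPM in ref4-1, 70.7 to 74.5 in ref4-3, 81.2 to 90.5 in cdk8-1, 72.7 to 78.2 in ref4-3 cdk8-1 and 71.0 to 73.6 in WT.

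The 6 root markers summed to 163 to 222 CPM in ref4-1, 173 to 191 in ref4-3, 355 to 428 in cdk8-1, 204 to 247 in ref4-3 cdk8-1 and 207 to 273 in WT. Most of this came from PYK10, a beta-glucosidase gene, which rose in cdk8-1 against WT (0.75 ± 0.14, adjusted p = 0.000802), as did SHR (0.38 ± 0.12, adjusted p = 0.0276), where SAG13, PPH and SEN1 fell. The root hair genes RSL4 and EXP7 were at 0 in all libraries of every genotype. The 9 flower and floral transition markers summed to 72.5 to 76.8 CPM in ref4-1, 69.3 to 71.6 in ref4-3, 57.0 to 61.6 in cdk8-1, 86.5 to 89.1 in ref4-3 cdk8-1 and 58.9 to 66.3 in WT, most of it from SOC1 with 77.9 ± 1.02 CPM in ref4-3 cdk8-1 and 54.6 ± 2.31 in WT. The flower meristem gene AP1 averaged 1.08 ± 0.199 CPM in ref4-1, 0.313 in cdk8-1 and 0.311 ± 0.243 in WT. The floral gene PI averaged 1.35 CPM in cdk8-1 and 0.339 in WT. In the same genotypes AP3 averaged 0.0843 and 0.284, LFY 0.0576 and 0.142, and FT 0.0898 and 0.198 CPM. AG, FUL, SOC1 and FLC also averaged less in cdk8-1 than in WT. AP1, PI, AP3, LFY and FT were below the filter and not tested. Of the 9 markers 4 were tested, and in ref4-1 against WT 2 rose and 1 fell, where 20.9% of all genes were called. In cdk8-1 against WT 0 rose and 0 fell, where 19.8% of all genes were called. The part of cell composition or plant stage in the changes of the 10 genes was not tested.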

How the data were processed

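The deposited table gives raw whole-number counts of reads for each gene in all 15 libraries, without normalisation by the authors. Per the labels' protocols, 2 ug of total RNA per sample went into a stranded library kit that selects polyadenylated RNA. Per the submitters' processing notes, the tools were Trimmomatic, TopHat2 2.1.0, HTSeq 0.6.1 and edgeR, and the build TAIR10. As for the counting mode and strand setting, both were not given in the sources used here. Rows for reads outside genes stayed out of library sizes: relative to gene counts 0.667 to 1.05% lay in no feature, 1.63 to 6.67% in more than 1 feature, and 2.37 to 6.62% had several alignments. PAO overlaps AT3G44870 by 11 bases on the same strand, and the other 9 genes overlap none.

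Genes above 1 CPM in at least 3 libraries were kept (18935 of 33601), scaled by TMM and analysed with edgeR 4.0.16 (R 4.3.3) in a quasi-likelihood model of genotype (~0 + genotype, prior count 0.125). The SE is the absolute log2 fold change over the square root of F. The fit was also run on counts simulated from the same kind of model, with few genes changed, evenly up and down. Such counts cannot test the scaling where many genes change. RPKM used exon lengths from RefSeq TAIR10.1, from which all sequences were read. Replicates are pools of 5 rosettes, so p-values measure the spread between such pools. Depth was 9573567 to 16803904 gene counts, and replicates differed by more than sampling noise in every pair (chi-square per degree of freedom 2.67 to 14.7). Replicate numbers were not used to pair the samples in the main fit. Of 30 pairs of same-numbered libraries 5 had a correlation of deviations over 0.1 (-0.19 to 0.18). Libraries with different numbers were not compared, so whether a number marks a shared batch was not tested.

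The 10 genes and the lists were chosen with earlier results of these data known. Genes named besides the 10 were drawn, per list and comparison, from the up to 3 genes with the smallest adjusted p. They were also drawn from the 3 genes most like each member among those with a mean of at least 5 CPM. Not all of these genes are named. EIN3, BFN1, RNS3 and single genes of the tissue marker lists, such as PYK10, SHR, SOC1, AP1 and PI, were added after their values were seen. So were genes named again in comparisons where they were not among these 3. Alternatives were other scaling (RLE, upper quartile, library totals), no filter, DESeq2 1.42.0, only the groups compared, a replicate block, and each library left out.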

Additional observations from a re-analysis of the deposited data

Results flagged for a closer look

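SEN1 stands out because the effect of cdk8-1 differed between plants with and without ref4-3. In ref4-3 cdk8-1 against ref4-3 its log2 fold change was 1.01 ± 0.23, and in cdk8-1 against WT it was -1.57 ± 0.20. The difference of 2.58 ± 0.31 passed edgeR's interaction test (adjusted p = 0.000121), with 3 libraries in each of the 4 genotypes. All 3 ref4-3 cdk8-1 libraries lay above all 3 ref4-3 libraries, and all 3 cdk8-1 libraries lay below all 3 WT libraries.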

How the results depend on the processing

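The 8 comparisons gave 41 called values for the 10 genes, and 33 stayed called with the same direction under all 22 alternatives. Of 1760 values under alternatives 1735 kept their direction. Fitting only the groups compared gave 2621 calls in ref4-1 against WT (3962 in the fit of all libraries), and in ref4-3 against ref4-1 637 calls (2064), 1 rise and 0 falls among the 10 genes. Library totals gave 4 rises there, and both library totals and DESeq2 left 1 fall in ref4-3 cdk8-1 against WT. By CPM in place of RPKM 5, 3 and 2 of the 10 genes changed rank in ref4-1, ref4-3 and cdk8-1.

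With a library left out, the 10 genes had 1 to 2 falls in ref4-3 cdk8-1 against WT, 1 to 3 rises and 0 to 1 falls in ref4-3 against ref4-1 (929 to 2163 calls in all, the lowest without ref4-3 library 3), and 1 to 2 rises in the interaction (541 to 1365 calls).

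Values that reversed had not passed the test in the first place. With upper quartile scaling NYC1 had 0.0024 in cdk8-1 against WT, and with library totals -0.027 in ref4-3 cdk8-1 against ref4-3 and -0.017 in the interaction. With a library left out, values ran from -0.00046 to 2.38 for SAG12 and -0.031 to 0.225 for PPH in ref4-1 against WT, -0.11 to 0.15 for PPH in ref4-3 against WT, -0.023 to 0.040 for PAO in cdk8-1 against WT, -1.92 to 2.46 for SAG12 in ref4-3 cdk8-1 against WT, and -0.024 to 0.061 for NYC1 in ref4-3 cdk8-1 against ref4-3. In ref4-3 against ref4-1 they ran from -0.080 to 0.42 for SAG13 and -0.22 to 0.067 for PPH. In the interaction they ran from -0.22 to 0.25 for ORE1, -0.67 to 3.23 for SAG12, -0.59 to 0.21 for SAG13, -0.040 to 0.15 for SGR1 and -0.0021 to 0.083 for NYC1. The cause of these moves was not tested.

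With the replicate number as a block, SAG12 in ref4-3 against ref4-1 became called (2.42, adjusted p = 0.0364), no call was lost among the 10 genes, and all counts of calls lay within 1.01 to 1.09 times those without it. Whether the replicate numbers pair the samples was not tested, since the correlations of deviations covered same-numbered libraries only. Depth limits what can be said of SAG12, with 10 counts in WT and 0 in cdk8-1.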
